A study of Mus musculus with 36 samples.

Results

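Complement is a set of plasma and tissue proteins that mark cells, debris and immune complexes for removal and can perforate membranes. The complement genes described here were 9 genes chosen by name, C1qa, C1qb, C1qc, C1ra, C1s1, C4b, C3, Cfb and Serping1, of the 37417 genes counted in 36 mouse tumours. In the classical pathway, the recognition protein C1q, built from the chains of C1qa, C1qb and C1qc, binds its target and activates the proteases C1r (C1ra) and C1s (C1s1), which cleave C4 (C4b). The resulting convertase cleaves C3, the protein on which all pathways meet, and factor B (Cfb) drives the alternative pathway loop that amplifies it. Serping1 encodes the C1 inhibitor, which blocks C1r and C1s. Most plasma complement comes from the liver, whereas in tumours C1q is known as a product of macrophages, and C3, factor B, C1r, C1s and the C1 inhibitor can be made by tumour and stromal cells and are known to respond to interferons.

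Bulk mRNA was sequenced from 36 subcutaneous tumours of wild type mice aged 12 weeks, 1 library per mouse, taken at end stage. Per the labels, the colon carcinoma line MC38 and the pancreatic line PancO2 grew in C57BL/6J mice and the colon carcinoma line CT26 in BALB/c mice. All mice received an antibody at 10 mg per kg into the peritoneum, either control IgG from rat serum, anti-CTLA4 or anti-PD-1, which gave 9 labelled groups of 4 libraries. Each model is 1 cell line, and the pancreatic line grew under the skin and not in the pancreas.

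Labels and expression did not go together. H2-Ea-ps, which BALB/c mice express and C57BL/6 mice do not, went against the labelled strain in 16 of the 36 libraries. Libraries are therefore named as "labelled" and were also described by 3 expression classes of 12 libraries set by a pair of genes outside the complement system. Levels are given as CPM, a gene's counts scaled to a common library total. The H2-Ea class had H2-Ea-ps above 10 CPM (32.8 to 134 CPM, against at most 0.0845 in the others). The Cp class had ceruloplasmin (Cp) above 1000 CPM (1389 to 2168 CPM, against at most 611 in the others), and the neither class had neither. These classes are not the labelled groups of the study, and each held libraries labelled with every model. The H2-Ea class held 12 libraries, as many as were labelled BALB/c, but only 4 of its libraries carried that label. Whether the labels had been exchanged between libraries, and whether the classes are the cell lines, was not tested. The PancO2 anti-PD-1 group had 0 libraries in the neither class. Totals ran from 7883106 to 41751023 counts, and the other 35 libraries started at 11821687. The shallowest, library 71, which carries a PancO2 anti-PD-1 label and was in the H2-Ea class, stood apart: 15.7% of its counts were mitochondrial, against 3.89 to 4.27% in the rest of its class, and its B cell markers summed to 18.1 CPM, against at most 3.13. Where it sets the lowest level of a member in its class or changes a call, the value without it is given too.

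The genes lie on 4 chromosomes of GRCm38. C1qa (ENSMUSG00000036887; chromosome 4, 136895917 to 136898803), C1qc (ENSMUSG00000036896; 136889804 to 136893065) and C1qb (ENSMUSG00000036905; 136880129 to 136886187) are neighbours on the minus strand. C1ra (ENSMUSG00000055172; chromosome 6, 124512405 to 124523443, plus strand) and C1s1 (ENSMUSG00000038521; 124530345 to 124542359, minus strand) also lie side by side. C4b (ENSMUSG00000073418; chromosome 17, 34728380 to 34743882), Cfb (ENSMUSG00000090231; 34856374 to 34862518) and, farther away, C3 (ENSMUSG00000024164; 57203970 to 57228136) are on the minus strand of chromosome 17. Serping1 (ENSMUSG00000023224; 84765387 to 84775444, minus strand) is on chromosome 2.

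Promoter windows from RefSeq (build GRCm38.p6, 250 bases before to 50 after the annotated start) were found for 5 of the 9 genes and not for C1qa, C4b, Cfb and Serping1. Those of the C1q pair, the protease pair and C3 are shown because the relations among these genes within a class are described below. C1s1 has 2 annotated starts, of which the first is shown. Capitals mark a match, on either strand, to 1 of 4 motifs: GAAANNGAA (part of the interferon-stimulated response element), TTCNNNGAA (the GAS element bound by STAT factors), GGGANNTTC (part of the kappa B site) and GAGGAAGT (the site of the macrophage factor PU.1). The first pair of motifs can overlap in the letters GAA.
C1qb, chr4:136886151-136886450, minus strand: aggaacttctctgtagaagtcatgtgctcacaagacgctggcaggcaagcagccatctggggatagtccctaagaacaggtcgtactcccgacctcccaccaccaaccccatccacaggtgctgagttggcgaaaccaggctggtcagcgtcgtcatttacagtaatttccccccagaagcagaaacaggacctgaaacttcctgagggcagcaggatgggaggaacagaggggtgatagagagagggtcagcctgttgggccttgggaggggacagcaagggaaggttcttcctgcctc
C1qc, chr4:136892865-136893164, minus strand: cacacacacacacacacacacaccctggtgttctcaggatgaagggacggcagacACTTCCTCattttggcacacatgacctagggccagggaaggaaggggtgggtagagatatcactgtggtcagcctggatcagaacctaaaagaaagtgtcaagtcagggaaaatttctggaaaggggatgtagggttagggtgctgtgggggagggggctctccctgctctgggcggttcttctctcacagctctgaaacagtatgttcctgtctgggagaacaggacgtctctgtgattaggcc
C1ra, chr6:124512371-124512670, plus strand: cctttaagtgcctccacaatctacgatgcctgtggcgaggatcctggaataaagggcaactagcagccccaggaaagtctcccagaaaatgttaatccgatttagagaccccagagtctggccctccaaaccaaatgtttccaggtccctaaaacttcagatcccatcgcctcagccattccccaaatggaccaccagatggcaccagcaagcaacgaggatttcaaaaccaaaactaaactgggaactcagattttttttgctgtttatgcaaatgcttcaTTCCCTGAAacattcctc
C1s1, chr6:124542310-124542609, minus strand: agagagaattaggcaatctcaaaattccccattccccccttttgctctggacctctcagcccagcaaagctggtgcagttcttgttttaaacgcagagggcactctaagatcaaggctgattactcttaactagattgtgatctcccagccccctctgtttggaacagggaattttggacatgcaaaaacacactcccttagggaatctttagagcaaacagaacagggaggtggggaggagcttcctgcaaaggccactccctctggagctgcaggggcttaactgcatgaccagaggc
C3, chr17:57228087-57228386, minus strand: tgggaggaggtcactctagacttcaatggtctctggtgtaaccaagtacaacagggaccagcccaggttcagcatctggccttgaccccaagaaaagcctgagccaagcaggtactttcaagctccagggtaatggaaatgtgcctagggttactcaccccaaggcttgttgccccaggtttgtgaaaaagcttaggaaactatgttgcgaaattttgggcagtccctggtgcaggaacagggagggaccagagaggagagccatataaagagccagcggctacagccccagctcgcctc
The C1qc window held 1 match to the PU.1 motif, starting 195 bases before the start, which 3.2% of all 32851 promoter windows also held. The C1ra window held 1 match to the GAS motif, 33 bases into the transcript, which 8.30% of all windows held. The windows of C1qb, C1s1 and C3 held 0 matches to the 4 motifs, of which the interferon motif was in 8.56% and the kappa B motif in 3.94% of all windows. A match is only a run of letters and no evidence of binding.

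Reads that fit more than 1 gene limit some of the counts. Cfb shares 79.5% of its exon bases with Gm20547, a gene annotated across C2 and Cfb that had 0 counts in all 36 libraries, and 579 of its 2825 exon bases are not shared. The default mode of HTSeq sets reads in shared bases aside, and the mode used is not given in the sources used here, so the level of Cfb may be understated and its order among the members is uncertain. Of the windows of 50 bases along the longest transcript, 50.8% for C1ra also occur in another gene (mostly C1rb), 39.0% for C1s1 (C1s2 and Gm16567) and 35.2% for C4b (C4a). Gm16567 also overlaps 18.4% of the exon bases of C1s1 on the other strand. For C1qa, C1qb, C1qc, C3 and Serping1 the share was 0%.

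Per kilobase of annotated exon, the C1q chains were the most abundant members. The median over all 36 libraries was 319 CPM per kilobase for C1qa, 272 for C1qb, 145 for C1qc, 43.0 for C1s1, 30 for C1ra, 26.9 for C3, 10.1 for Serping1, 7.19 for C4b and 0.228 for Cfb. Neighbours in this order overlapped in their range over the libraries in every case. The annotated exons of C1qc cover 1931 bases but its longest transcript 1203, whereas both lengths are 1040 for C1qa and 1088 for C1qb. The lower value of C1qc per kilobase thus depends in part on the length used. In 35 of the 36 libraries C1qa had more counts than C1qb.

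The 3 C1q chains were lowest in the H2-Ea class. C1qa had 88.5 CPM in the lowest, 214 in the median and 297 in the highest library of the H2-Ea class, 250, 422 and 502 CPM in the Cp class, and 307, 357 and 470 CPM in the neither class. The lowest value was that of library 71, and the next was 157 CPM. The H2-Ea and neither classes did not overlap, whereas the Cp class overlapped both. C1qb gave 98.7, 142 and 203 CPM in the H2-Ea class, 220, 375 and 455 in the Cp class, and 281, 317 and 395 in the neither class. For this chain the H2-Ea class lay below both other classes in every library. C1qc gave 87.7, 165 and 231 CPM in the H2-Ea class, 208, 348 and 414 in the Cp class, and 240, 289 and 381 in the neither class, again with the H2-Ea class wholly below the neither class. Its lowest value was also that of library 71, and the next was 121 CPM.

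The proteases were also lowest in the H2-Ea class, with more overlap. C1ra had 30.2, 51.2 and 86.2 CPM (lowest, median and highest) in the H2-Ea class, 85.2, 99.6 and 155 in the Cp class, and 61.7, 102 and 139 in the neither class. C1s1 had 34.2, 75.2 and 133 CPM in the H2-Ea class, 132, 158 and 236 in the Cp class, and 97.2, 163 and 246 in the neither class. For both genes the highest H2-Ea library, the one labelled PancO2 anti-PD-1 64, reached the lowest libraries of the other classes.

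C4b, C3 and Cfb act downstream of C1q or beside it, and the order of the classes differed among them. C3 was highest in the Cp class, with 161, 313 and 783 CPM there, against 40.8, 80.8 and 157 in the H2-Ea class and 94.6, 124 and 209 in the neither class. Every Cp library was above every H2-Ea library, and the pair of Cp libraries labelled MC38 IgG 7 and MC38 anti-CTLA4 8 stood highest, at 739 and 783 CPM. C4b had 30.6 (library 71, the next 41.4), 65.2 and 85.9 CPM in the H2-Ea class, 4.0, 23.0 and 75.8 in the Cp class, and 28.1, 41.5 and 160 in the neither class. Its median was highest in the H2-Ea class, and all 3 classes overlapped. Its lowest value was in the library labelled CT26 IgG 28, with 73 counts, and the next lowest library had 7.34 CPM. Cfb had between 1 and 80 counts in a library, or 0.127 (library 71, the next 0.331) to 1.12 CPM in the H2-Ea class, 0.152 to 2.99 in the Cp class and 0.392 to 1.10 in the neither class. These 3 ranges overlapped.

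Serping1, the inhibitor, was highest in the H2-Ea class. It had 27.9, 74.3 and 107 CPM there, 8.71, 23.2 and 58.4 in the Cp class, and 6.42, 14.6 and 23.6 in the neither class. The H2-Ea and neither classes did not overlap, and the lowest H2-Ea value came from library 71, with 60.1 CPM in the next.

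**Figure D1:**
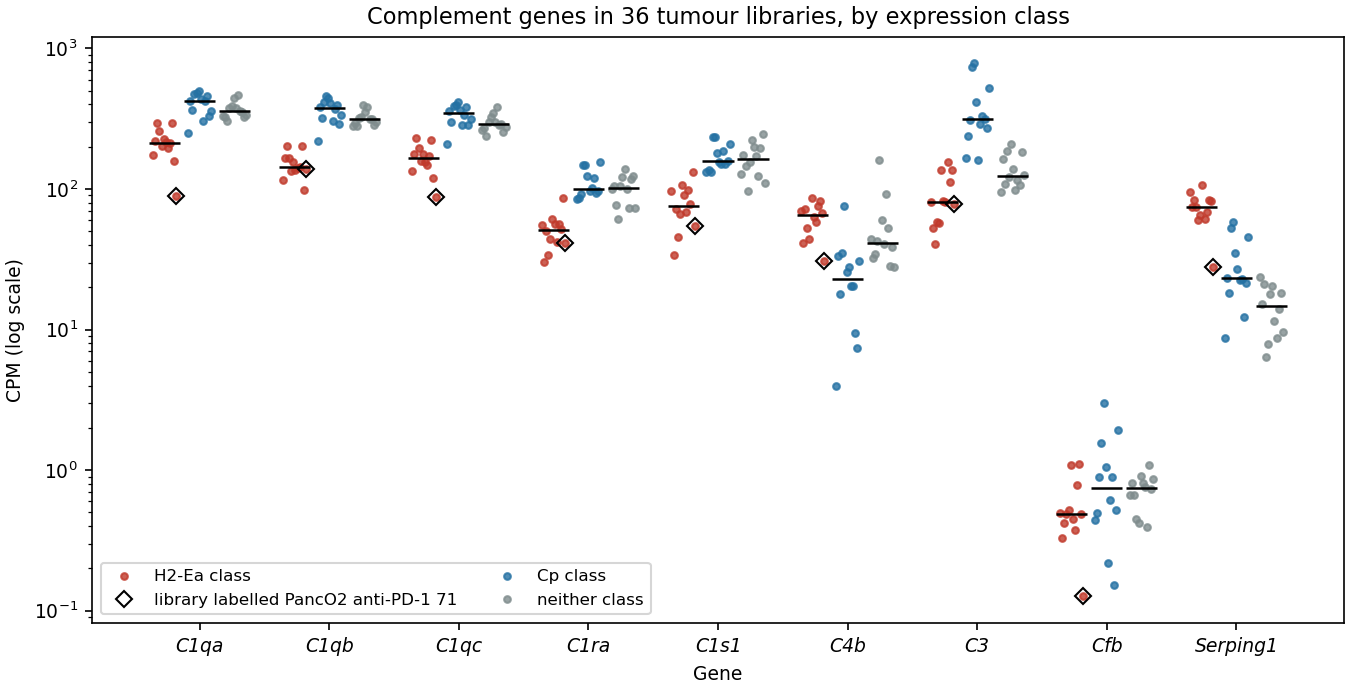
CPM (log axis) of the 9 complement genes in each of the 36 libraries, with 1 point per library, coloured by expression class, a black line at the class median and a diamond on library 71. The C1q chains were lowest and Serping1 highest in the H2-Ea class, C3 was highest in the Cp class (median 313 CPM), and Cfb stayed at 2.99 CPM or below.

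These differences were tested on the counts with edgeR's quasi-likelihood test over all 16323 genes that passed the filter on low counts, which included all 9 members. Fold changes here and below are on the log2 scale with the standard error, and p-values are Benjamini-Hochberg adjusted over all genes tested. The classes divide whole transcriptomes, so the share of all genes called is given for each comparison.

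Against the neither class, the H2-Ea class had 1 member called higher, 6 lower and 2 not called, where 36.9% of all genes were called higher and 34% lower. Serping1 was higher by 2.44 ± 0.26 (adjusted p = 1.45e-10). The C1q chains fell together, C1qa by 0.69 (SE 0.12, adjusted p = 6.95e-06), C1qb by 0.99 (SE 0.10, adjusted p = 7.09e-11) and C1qc by 0.73 (SE 0.11, adjusted p = 3.55e-07), as did C1ra (−0.87 ± 0.15) and C1s1 (−0.96 ± 0.17). C3 was lower by a narrow margin (−0.53 ± 0.24, adjusted p = 0.0473), and without library 71 its adjusted p was 0.0568. C4b (0.28 ± 0.31) and Cfb (−0.24 ± 0.34) did not pass. The CPM of 4 members did not overlap between these classes, against 24.8% of all genes.

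Between the Cp and neither classes, 2 members were higher, 1 lower and 6 not called, where 34.2% of all genes were called higher and 33.4% lower. C3 was higher by 1.49 ± 0.24 (adjusted p = 1.17e-06) and Serping1 by 1.03 ± 0.25 (adjusted p = 0.000413), whereas C4b was lower (−1.05 ± 0.32, adjusted p = 0.00403). The C1q chains and the proteases differed by 0.10 to 0.21 and did not pass, with adjusted p from 0.0754 to 0.624. None of the 9 members separated these classes without overlap, against 28.4% of all genes.

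Between the Cp and H2-Ea classes, 7 members were higher and 2 lower, where 36% of all genes were called higher and 38.1% lower. Of the members that were higher, C3 differed most (2.02 ± 0.25, adjusted p = 3.03e-09), followed by C1qb (1.19 ± 0.10, adjusted p = 4.82e-13), C1ra (1.07 ± 0.15) and C1s1 (1.05 ± 0.17). C4b (−1.33 ± 0.32, adjusted p = 0.000368) and Serping1 (−1.41 ± 0.25, adjusted p = 4.48e-06) were the pair lower in the Cp class. Cfb passed narrowly (0.74 ± 0.34, adjusted p = 0.0454), and without library 71 its adjusted p was 0.0574. C3 and C1qb did not overlap between these classes, or 2 of the 9 members against 29.1% of all genes.

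**Figure D2:**
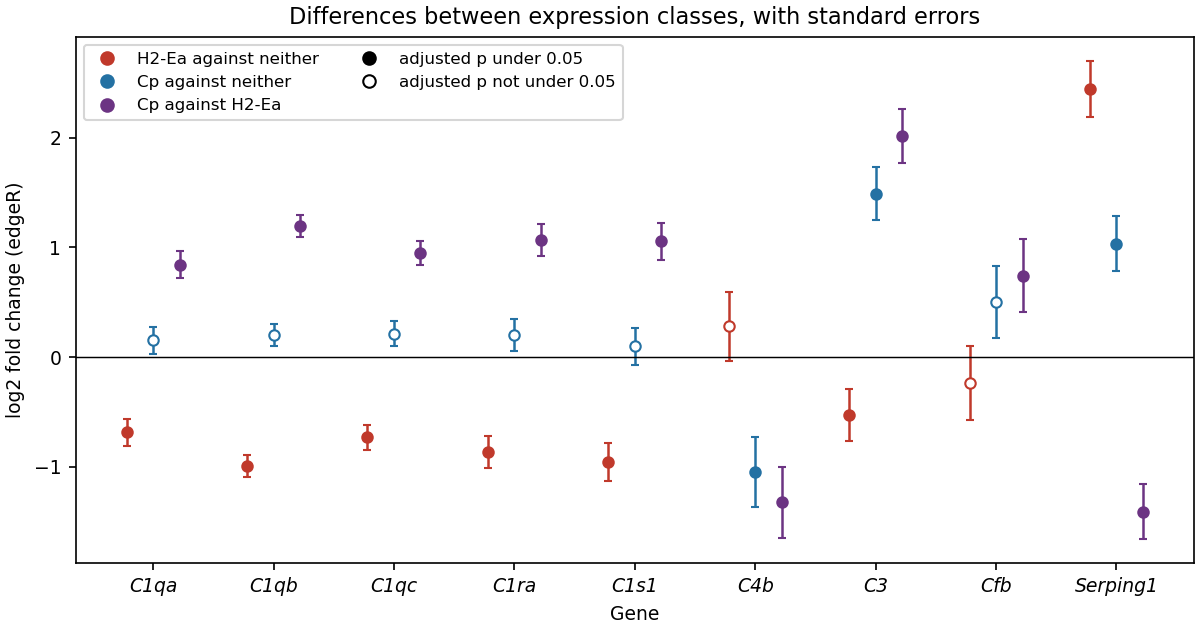
log2 fold change (vertical axis) with its standard error for each complement gene in the 3 comparisons of expression classes. Filled points passed an adjusted p of 0.05 in edgeR's test and open points did not. The C1q chains and the proteases fell in the H2-Ea class against either other class, C3 rose in the Cp class, and Serping1 rose by 2.44 in the H2-Ea class against the neither class.

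Cell type markers moved with the classes too. The 15 macrophage markers summed to 755 to 1428 CPM in the H2-Ea class, 830 to 1310 in the Cp class and 1401 to 2150 in the neither class. In the H2-Ea against the neither class 9 of the 15 were called lower and 2 higher, where 34% of all genes were called lower and 36.9% higher. In the Cp against the neither class 5 were called lower, 3 higher and 7 not called, where 33.4% of all genes were called lower and 34.2% higher. Changes there ran from −2.77 (Mrc1) to 0.93 (Aif1). In the Cp against the H2-Ea class 9 of the 15 were called higher, 3 lower and 3 not called. Of all genes tested in that comparison, 36% were called higher and 38.1% lower. The list's median log2 change was 0.64, with a range from −2.49 (Mrc1) to 1.82 (Cx3cr1). The 12 fibroblast markers summed to 2017 (2053 without library 71) to 4129 CPM in the H2-Ea class, 4300 to 7378 in the Cp class and 6429 to 14148 in the neither class. The 17 interferon response genes in the table summed to 1273 to 3206, 1958 to 9258 and 846 to 2812 CPM in the same order of classes. Of the 17, 15 were called higher and 0 lower in the Cp than in the neither class, against 34.2% and 33.4% of all genes. In bulk tissue, fewer cells of a type and less RNA per cell cannot be told apart, and the part of these markers in the class differences was not tested.

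Hepatocyte markers were near 0. The 6 summed to at most 3.30 CPM, which was in library 71, and to at most 1.27 CPM elsewhere, and albumin was at or below 0.634 CPM. Of the other cell types, T cell markers summed to 24.4 to 59.9, 56.8 to 178 and 8.14 to 114 CPM in the H2-Ea, Cp and neither classes. Neutrophil markers summed to 19.8 to 115 (at most 54.2 without library 71), 46.1 to 189 and 28.1 to 250 CPM. Endothelial markers summed to 93.2 (98.5 without library 71) to 211, 71 to 164 and 102 to 191 CPM. Adipocyte markers summed to 50.4 to 208 CPM in the Cp class and at most 14.2 CPM elsewhere, nearly all of it Plin4, while Adipoq stayed at or below 1.18 CPM. Cell cycle genes summed to 1793 to 2538, 1314 to 2189 and 2195 to 3022 CPM. B cell markers stayed at or below 6.32 CPM apart from the library named above, and keratinocyte markers reached 533 CPM and skeletal muscle markers 630 CPM in single libraries of the Cp class.

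Within a class, the levels of the C1q chains went together. Correlations were computed on log2 CPM over the 12 libraries of 1 class at a time, with 100000 permutations, for the 36 pairs of members in each of the 3 classes, and p-values were adjusted over all of these together. In the Cp class Pearson's r was 0.98 for C1qa with C1qb (rho = 0.97), 0.98 for C1qa with C1qc (rho = 0.99) and 0.99 for C1qb with C1qc (rho = 0.99), each with a permutation p of 1e-05, the smallest these permutations can give, and an adjusted p of 0.00018. In the neither class r was between 0.93 and 0.98. In the H2-Ea class r was 0.98 for C1qa with C1qc and 0.76 for C1qb with C1qc (adjusted permutation p = 0.0222, r = 0.98 without library 71), but 0.64 for C1qa with C1qb (permutation p = 0.0265, adjusted p = 0.0753; rho = 0.86, adjusted p = 0.00324). Without library 71 the r of C1qa with C1qb was 0.97 (permutation p = 1e-05).

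The proteases C1ra and C1s1, which work as a complex, also moved together in every class. Their r was 0.97 in the H2-Ea class (rho = 0.99), 0.96 in the Cp class (rho = 0.92) and 0.90 in the neither class (rho = 0.94), with adjusted permutation p from 0.00018 to 0.000756. Leaving out the 2 libraries farthest from the median of C1ra, r stayed at 0.97, 0.96 and 0.84. Both genes have a near-identical copy nearby, C1rb and C1s2, and the part of shared reads in this relation was not tested.

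Among C3, C4b, Cfb, Serping1 and the proteases, the number of pairs that passed depended on the class and on the coefficient. Of the 15 pairs among these 6 genes, 11 passed in the Cp class (r from 0.61 to 0.96 over the 15), 4 in the H2-Ea class (−0.0018 to 0.97) and 1, C1ra with C1s1, in the neither class (−0.52 to 0.90). By Spearman's rho 10, 8 and 1 pairs passed in the same order, with C3 and C1ra (rho = 0.81, adjusted permutation p = 0.0112) among those added in the H2-Ea class. C3 and Cfb had r = 0.86 in the Cp class (permutation p = 0.00056, adjusted p = 0.00356; rho = 0.89, adjusted p = 0.00301). Without the 2 libraries farthest from the median of C3 it was 0.76 (permutation p = 0.0107), which did not pass the adjustment. In the H2-Ea class their r was 0.62 (adjusted permutation p = 0.0831) and in the neither class 0.04 (adjusted permutation p = 0.939). C3 and C1ra had r = 0.89 in the Cp class (adjusted permutation p = 0.00108), C4b and Serping1 0.87 (adjusted permutation p = 0.00247, and r = 0.71 without the 2 farthest libraries, short of the adjusted threshold), and Serping1 and C1ra 0.87 (adjusted permutation p = 0.00171). Over all pairs of members and classes 26 passed, of which 16 also passed without the 2 farthest libraries. Whether the relations differed between classes was not tested.

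Between the C1q chains and the other 6 members, 2 of 18 pairs passed in the Cp class and 0 of 18 in each of the other classes by Pearson's r. Both were with C4b: C1qb had r = 0.79 (adjusted permutation p = 0.0121) and C1qc r = 0.73 (adjusted permutation p = 0.037) with it. Without the 2 libraries farthest from the median of the C1q chain these were 0.44 and 0.29 (permutation p = 0.21 and 0.42), and neither passed. By Spearman's rho 2, 0 and 1 pairs passed in the Cp, H2-Ea and neither classes, which were C1qb with C4b and with Serping1 (rho = 0.75 and 0.73, adjusted permutation p = 0.0323 and 0.0358) and C1qa with C4b in the neither class (rho = 0.72, adjusted permutation p = 0.04). C1qa and C3 had r = −0.18 in the H2-Ea, 0.52 in the Cp and 0.11 in the neither class (adjusted permutation p = 0.723, 0.152 and 0.816). C1qa and Cfb had r = 0.51, 0.24 and −0.02 (adjusted permutation p = 0.167, 0.607 and 0.963), and 0.33 in the H2-Ea class without library 71. At an unadjusted p under 0.05, 2, 6 and 2 of the 18 pairs passed in the H2-Ea, Cp and neither classes.

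The members were then set against the mean log2 CPM of 4 marker lists, again within each class, and the p-values were adjusted over all 9 members, 4 lists and 3 classes. Of these, 15 passed. The macrophage list took 7 of them, the interferon response list 8, and the fibroblast and cell cycle lists 0. By Spearman's rho 1 relation passed the same adjustment, Cfb with the interferon list in the Cp class, and 28 had an unadjusted Pearson p under 0.05.

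C1qa, C1qb and C1qc passed with the macrophage list in at least 1 class each. In the Cp class r with the macrophage list was 0.77 for C1qa (rho = 0.66), 0.83 for C1qb (rho = 0.68) and 0.81 for C1qc (rho = 0.70), with adjusted permutation p of 0.03, 0.0215 and 0.0215. The 2 libraries farthest from the list's median, labelled CT26 IgG 28 and PancO2 anti-PD-1 68, had low macrophage markers. Without them r was 0.44, 0.48 and 0.45 (permutation p = 0.21, 0.163 and 0.193), and none passed. Leaving out the extremes of a list also narrows its range, which can lower r by itself, so this cannot show that the relations rested on them. In the neither class r was 0.77 for C1qa and C1qc (adjusted permutation p = 0.0299 each; rho = 0.83 and 0.78) and 0.59 for C1qb (adjusted permutation p = 0.187), and without the farthest pair of libraries it was 0.63 for C1qa and 0.57 for C1qc (permutation p = 0.0464 and 0.0842), which did not pass the adjustment. In the H2-Ea class C1qb passed (r = 0.87, rho = 0.75, adjusted permutation p = 0.0184), whereas C1qa (r = 0.46) and C1qc (r = 0.57) did not, and without the farthest pair of libraries the r of C1qb was 0.72 (permutation p = 0.0188), which did not pass the adjustment either. Without library 71, r in that class was 0.93, 0.89 and 0.92 for C1qa, C1qb and C1qc (permutation p = 4e-05, 0.00034 and 0.00014). None of C3, Cfb, Serping1, C1ra and C1s1 passed with the macrophage list in any class, with r between −0.36 and 0.40.

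C3, factor B, the C1 inhibitor and the proteases passed with the interferon response list in at least 1 class each. In the Cp class 5 members passed with that list, Serping1 (r = 0.85, rho = 0.83), Cfb (r = 0.84, rho = 0.88), C3 (r = 0.80, rho = 0.76), C4b (r = 0.79, rho = 0.77) and C1ra (r = 0.78, rho = 0.71), with adjusted permutation p from 0.0184 to 0.0299. The list's mean ran from 6.66 to 7.53 in 7 of these libraries and from 8.13 to 8.91 in the other 5, on the log2 CPM scale. Leaving out the farthest pair, labelled MC38 anti-CTLA4 8 and PancO2 anti-PD-1 70, r was 0.76, 0.67, 0.67, 0.72 and 0.57 in the same order, and the adjusted p no longer passed. In the H2-Ea class C1ra (r = 0.78, rho = 0.77, adjusted permutation p = 0.0215) and C1s1 (r = 0.77, rho = 0.80, adjusted permutation p = 0.0293) passed, and these 2 relations also passed without the farthest pair of libraries (r = 0.87 and 0.89). In the neither class C1s1 passed (r = 0.83, rho = 0.80, adjusted permutation p = 0.0215), with r = 0.81 without the farthest pair (permutation p = 0.00587), short of the adjusted threshold. The C1q chains did not pass with this list in any class, with r between −0.28 and 0.58. In the Cp class their r was 0.67 (C1qa), 0.65 (C1qb) and 0.66 (C1qc) without the farthest pair of libraries. The permutation p was 0.0342, 0.0398 and 0.0325, short of the adjusted threshold. With the macrophage list, without the pair farthest from that list's median, r was 0.44, 0.48 and 0.45.

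C4b passed with both lists, in different classes. It went with the macrophage list in the neither class (r = 0.81, rho = 0.78, adjusted permutation p = 0.0215), where its r with the interferon list was −0.19, and with the interferon list in the Cp class. Without the neither libraries labelled MC38 anti-CTLA4 11 and CT26 anti-PD-1 41, which had the most macrophage markers and the most C4b (92.2 and 160 CPM), its r with the macrophage list was 0.59 (permutation p = 0.0741). The macrophage and interferon lists themselves had r = −0.15, 0.17 and −0.36 in the H2-Ea, Cp and neither classes, none passing. With the fibroblast list r was between −0.58 and 0.66 over all members and classes, and no member passed. In the Cp class r with that list was negative for all 9 members, from −0.58 to −0.32. The fibroblast and interferon lists had r = −0.69 in that class (permutation p = 0.0144, adjusted p = 0.255). That C1q differs from C3 in its relation to a list was not itself tested.

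**Figure D3:**
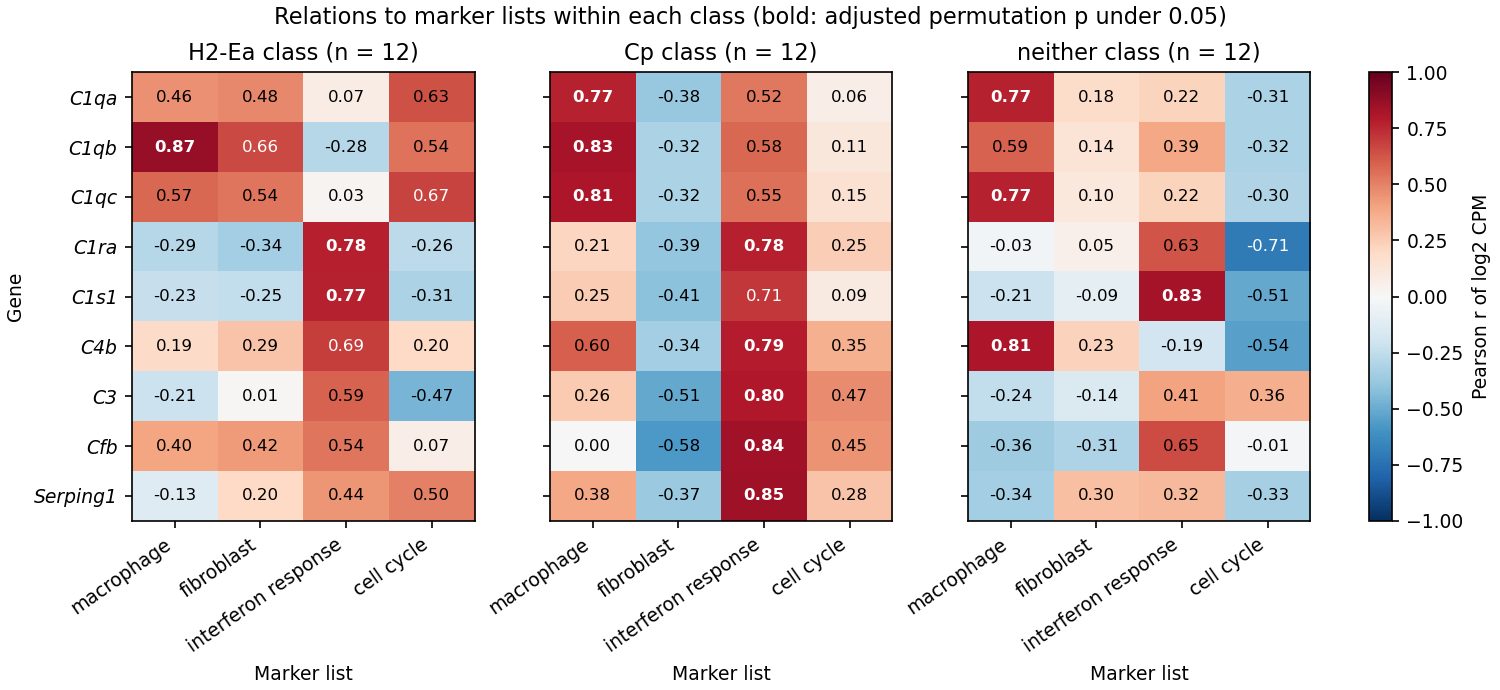
Pearson's r of each complement gene's log2 CPM with the mean log2 CPM of 4 marker lists, within each expression class of 12 libraries, on a colour scale from −1 (blue) to 1 (red). Bold values passed an adjusted permutation p of 0.05; they fall on the macrophage column for C1q chains and C4b and on the interferon column for the other genes and C4b.

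**Figure D4:**
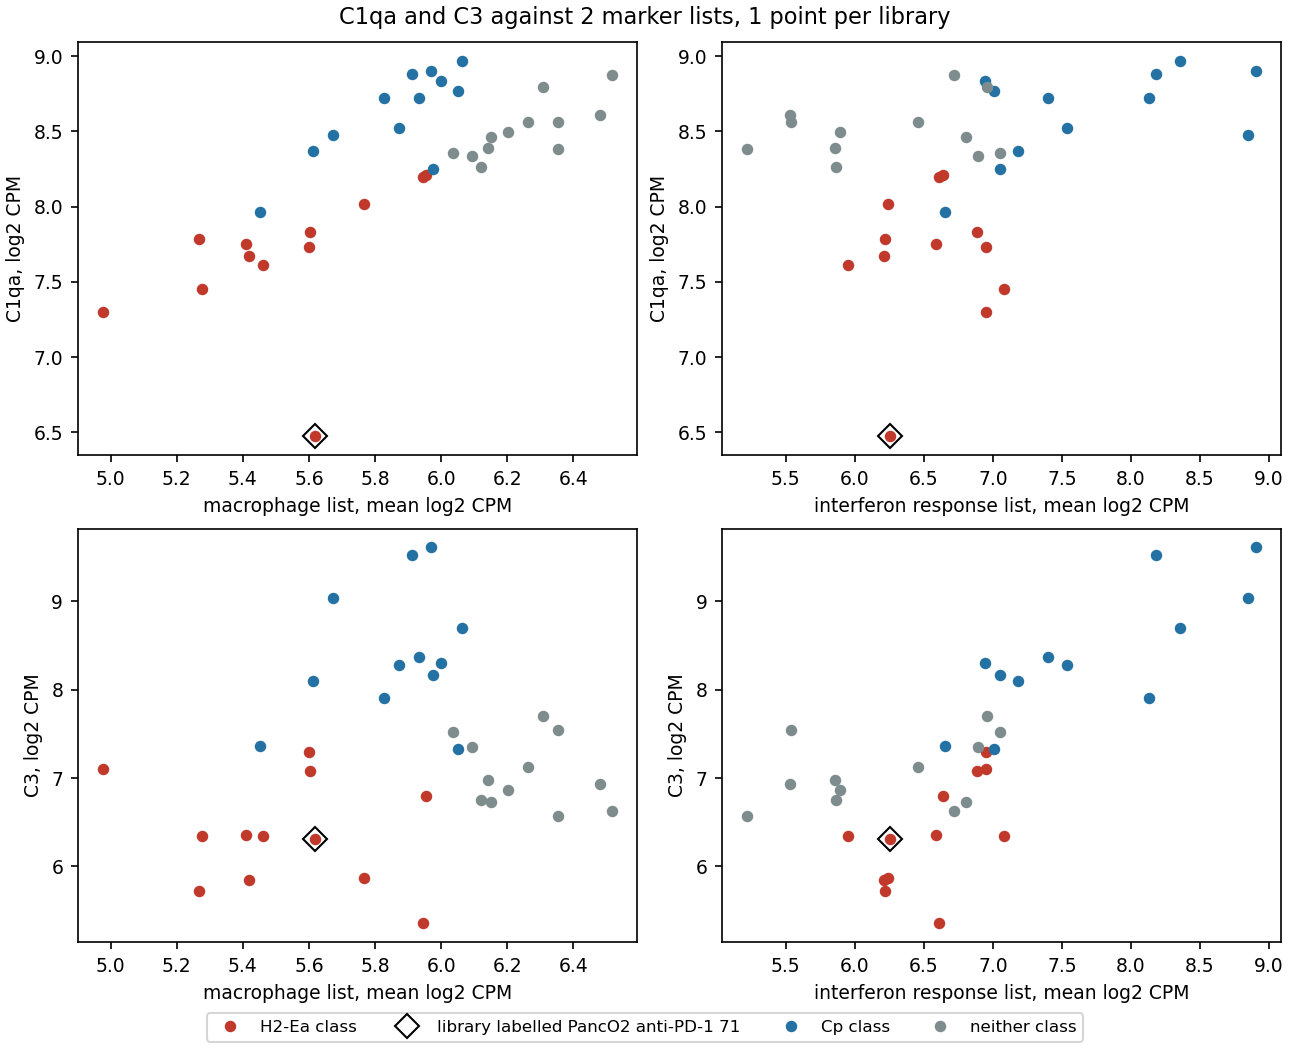
log2 CPM of C1qa (upper row) and C3 (lower row) against the mean log2 CPM of the macrophage list (left) and the interferon response list (right), 1 point per library, coloured by expression class. Within the Cp class C1qa rose with the macrophage list (r = 0.77) and C3 with the interferon list (r = 0.80); the diamond marks library 71, whose C1qa was the lowest of all.

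The ratios of C1q chains within a library were looked at after the values were seen and so are given without a test. That of C1qa to C1qb was higher in the H2-Ea class in all libraries but 1. C1qa had 1.34 to 1.59 counts per count of C1qb in 11 libraries of that class, 1.0 to 1.16 in the Cp class and 1.07 to 1.22 in the neither class. The exception was library 71, at 0.640. C1qa per C1qc ran from 1.23 to 1.39 in the same 11 libraries, 1.06 to 1.26 in the Cp class and 1.19 to 1.29 in the neither class, which overlapped. C1ra per C1s1 overlapped among all classes, with medians of 0.655, 0.639 and 0.603.

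**Figure D5:**
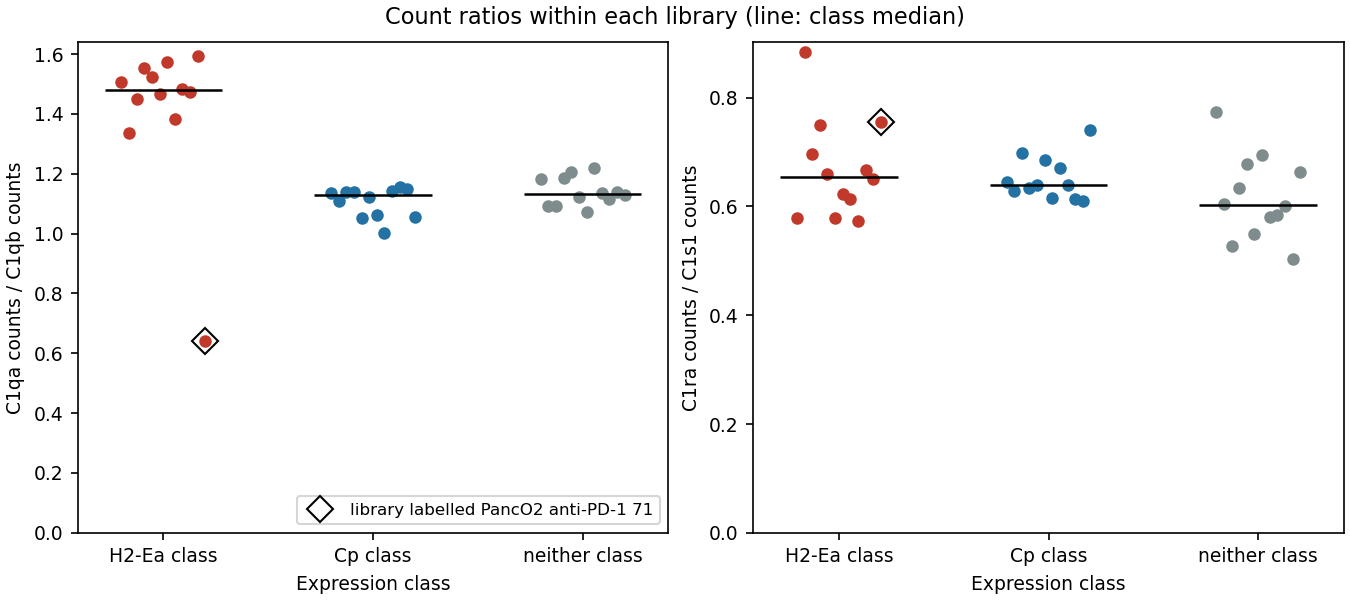
Counts of C1qa per count of C1qb (left) and of C1ra per count of C1s1 (right) in each library, by expression class, with a line at the class median and axes that start at 0. C1qa to C1qb ratios were 1.34 or more in 11 of 12 H2-Ea libraries and at most 1.22 in the other classes, and the diamond marks library 71.

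Neighbours of the members also differed by class, among them the close copies C1s2 and C4a. C1s2 had 4.40 to 16.9 CPM in the H2-Ea class and at most 0.679 CPM in the others. C1s1 thus had 6.52 to 10.8 counts per count of C1s2 there (at most 8.26 without library 71) and at least 250 elsewhere. C4a had 1.65 (library 71, the next 2.02) to 6.87 CPM in the H2-Ea class, 0.660 to 1.39 in the Cp class and 0.827 to 2.82 in the neither class. C2, which lies next to Cfb and encodes the protease that joins C4 in the classical convertase, had 7.08 to 15.9 CPM in the neither class. It had at most 2.63 CPM elsewhere. Of its exon bases 46.9% are shared with other counted genes, Gm20547 among them, so its level may be understated as well.

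The wider complement system was followed in a list of 60 genes, of which 59 were in the table and 41 passed the filter. Of these 41, 13 were called higher and 19 lower in the H2-Ea than in the neither class, 7 and 18 in the Cp than in the neither class, and 15 and 20 in the Cp than in the H2-Ea class. Over all genes tested the shares called higher and lower were 36.9% and 34%, 34.2% and 33.4%, and 36% and 38.1%. Median log2 differences of the list were −0.24, −0.28 and −0.31, against 0.03, 0.02 and −0.04 over all genes tested. Among genes of at least 1 CPM on average, the largest rises beside Serping1 in the H2-Ea against the neither class were in C1s2 (5.09 ± 0.29), the collectin Colec12 (3.86 ± 0.18) and Cd59b (2.20 ± 0.15), which encodes an inhibitor of the membrane attack complex. The largest falls were Hc (complement C5, −3.68 ± 0.49), C2 (−2.74 ± 0.18), clusterin (Clu, −1.45 ± 0.20) and the integrin Itgax (−1.37 ± 0.33, adjusted p = 0.000331).

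In the Cp class, Masp1 and Fcna differed from both other classes, in opposite directions. The lectin pathway protease Masp1 had 173 to 270 CPM, against 41.3 to 69.3 in the neither and 8.86 to 37.3 in the H2-Ea class, and was higher by 2.02 ± 0.13 and 3.15 ± 0.13. Ficolin A (Fcna), a recognition protein of the lectin pathway, fell by 4.30 against both other classes (SE 0.37 in each). Against the neither class Hc (−3.36 ± 0.46), C2 (−3.05 ± 0.19) and Clu (−2.93 ± 0.22) were also lower, and against the H2-Ea class C1s2 (−5.08 ± 0.29), Colec12 (−3.75 ± 0.17) and C6 of the membrane attack complex (−2.82 ± 0.41) were lower and Itgax (2.35 ± 0.33) higher. Each of these changes had an adjusted p of 4.13e-04 or less by edgeR's test. By the same test Clu was also lower against the H2-Ea class (−1.48 ± 0.21, adjusted p = 7.16e-08). Against the neither class C6 was also lower (−2.35 ± 0.40, adjusted p = 3.62e-06) and Itgax higher (0.98 ± 0.31, adjusted p = 0.00624).

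Over all 36 libraries, after each class was centred on its own mean, the genes most like each member were ranked by Pearson's r of log2 CPM among genes of at least 5 CPM on average. These values describe libraries that share depth and tissue makeup, and no test was made. C1qa was nearest to C1qc (0.98), Unc93b1 (0.91) and Adap1 (0.89), C1qb to C1qc (0.85), Lyn (0.85) and Ptpn6 (0.83), and C1qc to C1qa (0.98), Unc93b1 (0.90) and Arrb2 (0.88). Without library 71, each chain was nearest to the other 2 chains (0.97 to 0.98). C1ra and C1s1 were nearest to each other (0.94), then C1ra to C1rl (0.76) and Zbp1 (0.75), and C1s1 to Ly6a (0.79) and Gbp9 (0.77). C3 was nearest to Jak2 (0.76), Herc6 (0.74) and Zbp1 (0.73), Cfb to Oas3 (0.84), Oas1b (0.83) and Slfn2 (0.82), C4b to Bst1 (0.78), Smpdl3a (0.75) and Abcg1 (0.74), and Serping1 to Shisa5 (0.80), Il2rg (0.77) and Glrx (0.76). Without library 71 these lists changed in part: C3 then had Jak2, Cd47 and Slfn2, C4b had Bst1, Pirb and C3ar1, Cfb had Slfn8, Slfn2 and Oas3, Serping1 had Shisa5, Arhgdib and Tnf, C1ra had C1s1, Ifi205 and C1rl, and C1s1 had C1ra, Ly6a and C1rl.

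The labels give models and antibodies, and the members were last compared between these labelled groups. Response to treatment, by which the study classed tumours, is not in the labels and was not analysed here. In libraries labelled MC38, C1qa averaged 337 ± 141 CPM under IgG (SD, n = 4), 385 ± 122 under anti-CTLA4 and 374 ± 132 under anti-PD-1. In those labelled CT26 it averaged 270 ± 73.7, 311 ± 83.3 and 349 ± 60.4 CPM, and in those labelled PancO2 299 ± 61.2, 377 ± 73.9 and 233 ± 131 CPM in the same order. All 9 groups overlapped. C3 averaged 285 ± 309, 276 ± 339 and 193 ± 152 CPM in libraries labelled MC38, 126 ± 44.5, 110 ± 91.0 and 169 ± 107 in those labelled CT26, and 184 ± 76.6, 221 ± 119 and 254 ± 199 in those labelled PancO2, with SDs above the means in both MC38 groups that hold the highest Cp libraries. Serping1 averaged from 26.7 ± 32.1 CPM (CT26 anti-PD-1) to 50.8 ± 33.1 CPM (CT26 anti-CTLA4).

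In a fit of all 36 libraries with labelled group and expression class as terms, none of the 9 members passed in any of 6 antibody comparisons or 3 comparisons of models under IgG, where 0% of 17909 genes (0 genes) were called in each. At an unadjusted p under 0.05, edgeR's test gave 11 of the 81 member results and 126 to 2543 genes, and DESeq2 and limma-voom also called 0 members. Of these 11, 6 were the C1q chains in libraries labelled CT26, which were 1.26 to 1.31-fold higher under anti-PD-1 than IgG (unadjusted p = 0.0286 to 0.0443 by edgeR, adjusted p = 1) and 1.33 to 1.38-fold higher under anti-CTLA4 (unadjusted p = 0.00365 to 0.0379 by edgeR, adjusted p = 0.9996). The other 5 were C1qa, C1qb, C1qc and C3 lower in CT26 than in MC38 under IgG, and C3 lower under anti-PD-1 than IgG in MC38 (−0.78 ± 0.38). The C1q chains went together within a class, so their results are not independent of each other. Against IgG in CT26, 425 of 17909 genes under anti-PD-1 and 580 under anti-CTLA4 had an unadjusted p under 0.05 by edgeR. Member differences ran from −1.16 to 1.0 on the log2 scale over the 9 comparisons. Whether an antibody acted differently between labelled models was tested in 6 interactions, and again 0 members and 0 genes (0%) passed, with a smallest adjusted p of 0.389. Each labelled group held libraries of 2 or 3 expression classes, and the part of the labels that go against H2-Ea-ps in these results was not tested.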

How the data were processed

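Total RNA was poly-A selected and made into 1 library per tumour, per the labels with an Illumina TruSeq kit, whereas the study's methods name a stranded KAPA kit for its RNA sequencing. The authors deposited 1 table of raw read counts, with a row for each Ensembl gene. Per the study's methods and the labels, the authors mapped reads to GRCm38/mm10 with TopHat and Bowtie and counted them with HTSeq. The annotation release, the HTSeq mode and its strand setting are not given in the sources used here, which leaves overlapping and antisense genes uncertain. HTSeq by default leaves out reads that map to several places, which lowers genes with close copies. The counts are per mouse, not normalized.

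Beside 37417 genes there were 5 summary lines. They took 44.8 to 86.5% of the reads listed for a library and entered neither totals nor tests. Symbols were found for 32608 identifiers, and coordinates came from the GENCODE vM21 annotation of GRCm38. CPM are counts scaled to the sum over genes. Totals of 7883106 to 41751023 counts set a limit for a count of 0 of 3 counts per library, which covers counting error only. Each library has its own mouse number in the labels, which say nothing of cages or batches, so p-values measure the spread between these libraries.

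The members, classes, lists, tests and alternatives were chosen with earlier results of these data known. Counts were tested with edgeR 4.0.16 in R 4.3.3 (filterByExpr, TMM, robust estimateDisp and glmQLFit, glmQLFTest, two-sided, Benjamini-Hochberg adjusted p under 0.05), with class alone or with labelled group and class. A standard error is the absolute log2 change over the root of the F statistic. The study's methods used limma between responsive and nonresponsive tumours, groups that the labels do not give, so limma-voom on the comparisons made here (limma 3.58.1) was an alternative beside DESeq2 1.42.0. For correlations, log2 CPM had 2 as prior count, with two-sided permutation tests (Python 3.11.15, numpy 2.4.6, pandas 2.3.3). Exon overlaps and shared windows of 50 bases were computed from the annotation and its transcripts.

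Named genes were the 9 members, H2-Ea-ps and Cp, the neighbours C4a, C1rb, C1s2, C2 and Gm20547, the 4 called genes of the complement list with the largest change in each direction and at least 1 CPM on average, the 3 genes nearest to each member, and marker genes beside a result. 1 gene that this rule names is not reported here. The lists were macrophage, fibroblast, interferon response, cell cycle, T cell, neutrophil, B cell, endothelial, adipocyte, keratinocyte, skeletal muscle and hepatocyte. Alternatives were other normalizations, filters, tools and covariates, a fold threshold, leaving out libraries, a prior count of 0.5 and, chosen after seeing the data, residuals from log2 library total. The steps were tested on simulated data. Figures were drawn with matplotlib 3.10.9.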

Additional observations from a re-analysis of the deposited data

Results flagged for a closer look

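In 7 of the 81 sets of 4 libraries (9 members in 9 labelled groups), 1 library stood apart from the other 3 by Dixon's test at 95%, where chance gives about 4.05 of 81. In the group labelled MC38 anti-CTLA4, library 8 had 783 CPM of C3 (the others 81.6 to 139) and 2.99 CPM of Cfb (0.448 to 0.812). In the group labelled CT26 anti-PD-1, library 42 had 167 CPM of C1qb (319 to 324) and library 46 had 0.90 CPM of Cfb (0.422 to 0.489). In the group labelled PancO2 IgG, library 54 had 143 CPM of C1qb (287 to 316) and 68.4 CPM of Serping1 (14.1 to 22.4), and in the group labelled CT26 IgG, library 27 had 95.9 CPM of Serping1 (8.71 to 23.6). In all 7 cases the library was the single one of its expression class in its group. Within its own class, 5 of the 7 values lay inside the range of the other 11 libraries, and C3 and Cfb of the library labelled MC38 anti-CTLA4 8 lay above it (at most 739 and 1.92 CPM).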

How the results depend on the processing

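Between expression classes, the count of members called stayed within 1.5 times the main count under every alternative but 1: when a log2 change of 1 or more in size was also required, 1 member (Serping1) in place of 7 was called in the H2-Ea against the neither class. No member difference changed direction. Single calls were lost for C3 in the H2-Ea against the neither class with DESeq2 size factors (adjusted p = 0.0503) and without library 71 (0.0568), and for Cfb in the Cp against the H2-Ea class without a filter (0.0629), by limma-voom (0.218), with labelled group added (0.0769) and without library 71 (0.0574), whereas C1qc in the Cp against the neither class was gained with at least 10 counts in every library, a filter that removes Cfb. Between labelled groups 0 members were called under every alternative, leaving out each library included. Of the 15 relations to marker lists that passed, 2 passed without the 2 libraries farthest from the list's median, a setting with fewer libraries. Without library 71 all 15 passed and 2 more, 17 in all. No paired analysis was possible because each mouse number in the labels belongs to 1 library. Cfb was limited most by depth, with 1 to 80 counts per library.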
